A study of Mus musculus with 2 samples.

Results

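Trace amine-associated receptors (Taar genes) are a small family of G protein-coupled receptors that detect volatile amines in the nose. All features whose symbol begins with Taar were taken, which gave 15 of the 32534 features in the count matrices. They are not related closely to the odorant receptors (Olfr genes), yet most of them are used in the same kind of cell: each olfactory sensory neuron settles on 1 receptor gene, and some neurons of the dorsal epithelium settle on a Taar. Taar1 is the exception, known from the brain rather than from olfactory neurons. Neurons arise from dividing globose basal cells, pass through a precursor stage with the proneural factor Neurod1, then an immature stage with the growth-cone protein Gap43, and end with olfactory marker protein (Omp).

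The Taar genes were set beside 1105 Olfr genes (34 Olfr pseudogenes were left out). The data are 2 single-cell libraries of whole olfactory epithelium, made with 3′ chemistry that counts each captured RNA molecule once by a unique molecular identifier (UMI). The transgenic library came from female tissue of 9 weeks, hemizygous for Tg(Or8a1-OR1A1,-MAPT/mCherry)D736Feins, from the D736Feins/J strain that carries it. This allele name joins Or8a1, the human odorant receptor OR1A1 and an mCherry tag. The wild-type library came from female tissue of 8 weeks, from a cross of 10G4-V2.2-#7/Jax with Bl6/129SF1/J. Its genotype is labelled WT, yet its strain label names 10G4, and both matrices hold a feature called 10G4 whose sequence no source used here gives. Whether this animal carried another construct is therefore not known. With 1 library per genotype, genotype, age, strain and library cannot be told apart. No test between them was possible, and all intervals are 95% intervals that cover counting error only.

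After filtering, 1745 transgenic and 1117 wild-type cells were kept, with medians of 14440 and 12983 UMIs. Kept cells of both libraries shared 1 barcode. Clusters were named from marker genes, with receptor genes left out of the clustering. The mature class held 622 transgenic and 435 wild-type cells (Omp at 5037 and 5123 CPM, counts scaled to 1000000 UMIs of the class), and the immature class held 181 and 44 cells (Gap43 2524 and 2249 CPM). A further cluster of 177 and 40 cells stayed unnamed. Fxyd2 and Calb2 led its genes, Gap43 was among the first 10, and it carried both Gap43 (1203 and 1201 CPM) and Omp (3104 and 2891 CPM). It is called the Calb2 and Gap43 cluster here, and these 3 classes together are called the sensory neurons.

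The Taar genes lie side by side on chromosome 10, between chr10:23920356 and chr10:24109534 in GRCm38, the build of the annotation used here (GENCODE M21). The submitters' processing notes name GRCm39, so these coordinates describe the annotation and not the deposited counts. Taar7a, Taar7b, Taar7d, Taar7e and Taar7f are near copies of each other, with 91.7% to 95.4% identical coding bases between pairs, and Taar8a, Taar8b and Taar8c share 96.6% to 98.1%. In the other 7 genes no stretch of 90 bases was shared with another Taar, while 12.6% (Taar7a) to 56.2% (Taar8c) of such stretches were shared in the near copies. Counts of Taar7 and Taar8 genes are therefore uncertain as to the exact gene. The last 60 coding bases, stop codon included, are shown because 3′ chemistry reads the end of a transcript. Capitals mark bases that no majority of the family's genes shares.
Taar7a, chr10:23992405-23992464, minus strand: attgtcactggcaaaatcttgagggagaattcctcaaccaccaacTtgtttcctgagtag
Taar7b, chr10:24000956-24001015, plus strand: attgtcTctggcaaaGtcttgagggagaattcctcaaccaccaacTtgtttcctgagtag
Taar7d, chr10:24028239-24028298, plus strand: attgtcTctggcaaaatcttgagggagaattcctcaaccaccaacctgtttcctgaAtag
Taar7e, chr10:24038631-24038690, plus strand: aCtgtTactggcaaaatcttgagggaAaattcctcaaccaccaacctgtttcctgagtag
Taar7f, chr10:24050527-24050586, plus strand: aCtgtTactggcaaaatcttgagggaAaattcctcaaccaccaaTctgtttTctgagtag
Taar8a, chr10:24077475-24077534, plus strand: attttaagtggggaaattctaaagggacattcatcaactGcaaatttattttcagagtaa
Taar8b, chr10:24091260-24091319, minus strand: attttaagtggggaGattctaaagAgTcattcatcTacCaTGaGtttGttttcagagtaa
Taar8c, chr10:24100878-24100937, minus strand: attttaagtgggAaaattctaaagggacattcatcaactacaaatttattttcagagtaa
Within these 60 bases Taar7a and Taar7b differed at 2 positions, Taar7e and Taar7f at 2, and Taar8a and Taar8c at 2. Taar8b differed at 10 positions from Taar8a and at 10 from Taar8c.

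Taar RNA was rare but concentrated in few cells. Over all barcodes, cells or not, the transgenic library held 413 Taar UMIs (of 70572741 in all) and the wild-type library 142 (of 55701219). Barcodes under 100 UMIs, which stand for free RNA, held 10 of the transgenic and 7 of the wild-type Taar UMIs. Kept cells held 285 in the transgenic library and 75 in the wild-type library. Of the transgenic UMIs in kept cells, all but 1 lay in sensory neurons, and in the wild-type library all 75 lay in mature cells.

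Single genes differed widely. Taar6 had 145 UMIs in the transgenic library and 41 in the wild-type library. Taar3, which in mice responds to isoamylamine, had 96 and 55. Taar4, a phenylethylamine receptor, had 66 in the transgenic library and 5 in the wild-type library.
Taar9 had 35 transgenic and 18 wild-type UMIs, and Taar2 had 33 and 14. These 5 genes were seen in both libraries, each with more UMIs in the transgenic one. The sums are not scaled, and the transgenic library also held more UMIs in all and more sensory neurons. Of its 96 Taar3 UMIs, 51 lay in 1 barcode that was not kept as a cell.
Among the near copies, Taar7b had 19 transgenic and 1 wild-type UMI, and Taar8b 14 and 2. Taar8a had 3 and 0, Taar7d 0 and 4, Taar7e 1 and 1, Taar7f 1 and 0, and Taar7a 0 and 1. Taar1, Taar8c and Taar5, the trimethylamine receptor, had 0 UMIs in every barcode of both libraries, which at this depth does not show that they were unused.

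**Figure D1:**
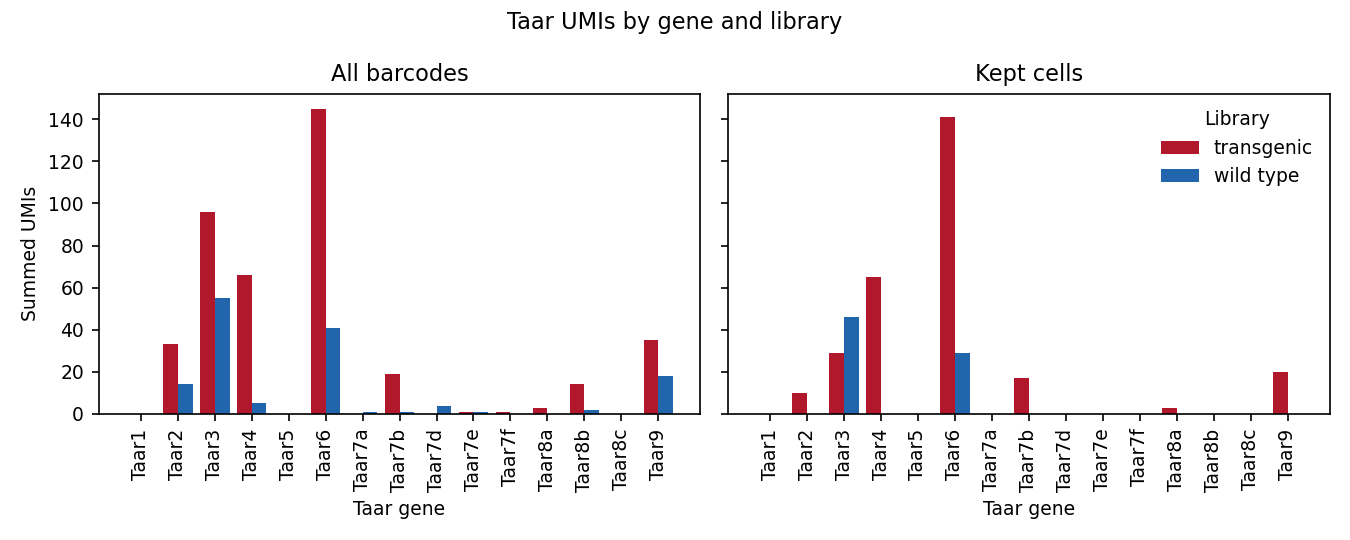
Summed UMIs (y axis) of each of the 15 Taar genes (x axis, in chromosome order) in the transgenic (red) and wild-type (blue) library, over all barcodes on the left and over kept cells on the right. Taar6, Taar3 and Taar4 hold most UMIs, while Taar1, Taar5 and Taar8c have none.

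A cell was called for a receptor at 3 or more UMIs of it. By this rule 7 of the 15 genes were called in a kept cell and 8 in none. Taar6 was called in 5 cells, Taar3, Taar4, Taar7b and Taar9 in 2 cells each, and Taar2 and Taar8a in 1 cell each. In all, 15 cells were called, 13 in the transgenic library and 2 in the wild-type library. Only 2 further kept cells held a Taar UMI: a mature transgenic cell with 2 UMIs of Taar7b, and a cell of the ionocyte-type microvillar class with 1 UMI of Taar9. The called cells held 3 to 46 UMIs of their Taar, and no gap in counts set the lowest of them apart from these 2 cells.

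Another 4 barcodes reached 3 UMIs of a Taar but were not kept as cells. In the transgenic library these were a Taar3 barcode with 51 UMIs of the gene and 12.1% mitochondrial UMIs, a Taar8b barcode with 13 UMIs and 14.6% mitochondrial UMIs, and a Taar2 barcode with 7 UMIs of 2213 in all. In the wild-type library it was a Taar2 barcode with 3 UMIs of 229. The highest Taar count of any barcode was therefore in one left out for its mitochondrial share. Each of the 4 held 1 Taar at 3 UMIs.

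Each of the 15 called cells held exactly 1 Taar gene, with 0 UMIs of every other Taar. Of these cells, 9 held no Olfr UMI at all (7 transgenic, 2 wild-type), and 5 held Olfr genes at 1 or 2 UMIs only. The remaining cell was called for an Olfr as well. It was an immature transgenic cell with 32 UMIs of Taar6 and 23 UMIs of Olfr655, a class I (fish-like) odorant receptor, among 6973 UMIs in all. It had 4 UMIs of Gap43, 0 of Omp and 0 of Neurod1, and a doublet score of 0.0337, against 0.0021 to 0.0652 in the other 4 immature Taar cells. In all 15 cells the Taar gene outnumbered any Olfr gene, so all of them are called Taar-led.

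No mature Taar-led cell held an Olfr at 3 UMIs, 0 of 8, a count with which a share of up to 37.5% is compatible. Mature cells led by an Olfr gene held a further Olfr at 3 UMIs in 9.48% of 443 transgenic cells (6.92% to 12.6%) and in 3.20% of 406 cells of the wild-type library (1.72% to 5.41%). With 8 cells, a difference from these shares was not detectable. In the other direction, 0 of 702 transgenic and 0 of 474 wild-type Olfr-led sensory neurons held even 1 Taar UMI, which allows shares of up to 0.427% and 0.633%. Taar and Olfr genes were called in the same cell in 1 sensory neuron over both libraries.

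By stage, no Taar UMI was seen in globose basal cells (54 transgenic, 9 wild-type) or in Neurod1-bearing precursors (68 and 14). The summed Taar level in these classes was 0 CPM in both libraries. The wild-type counts are small here, since 3 UMIs would already have been 10.2 CPM in basal cells and 11.8 CPM in precursors. Neurod1 had 0 UMIs in all 15 Taar-called cells.

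The 5 immature Taar-called cells were all transgenic, 2.76% of 181 immature cells (0.903% to 6.33%), against 0 of 44 in the wild-type library, which allows up to 6.82%. They were 3 Taar6 cells with 42, 30 and 32 Taar UMIs, a Taar7b cell with 4 and a Taar8a cell with 3. Both deeper Taar6 cells had high Gap43 (83 and 136 UMIs) beside 1 Omp UMI each. The Taar7b and Taar8a cells carried both stage genes, with 68 and 30 Gap43 UMIs and 17 and 23 Omp UMIs. High Taar6 counts were thus found in cells with almost no Omp.
Summed Taar RNA was 40.3 CPM in immature transgenic cells (33.2 to 48.5) and 0 CPM in immature wild-type cells, where 3 UMIs would be 4.34 CPM. Olfr RNA in the same cells summed to 3036 CPM in the transgenic library and 3558 CPM in the wild-type library.

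The Calb2 and Gap43 cluster held 2 Taar-called cells, both transgenic, of 177 (1.13%, 0.137% to 4.02%), against 0 of 40 in the wild-type library, which allows up to 7.5%. The Taar6 cell had 37 UMIs of its receptor with 21 of Gap43 and 102 of Omp. The Taar7b cell had 11 UMIs with 31 of Gap43 and 59 of Omp. Both carried Calb2, the calcium-binding protein calretinin, at 63 and 49 UMIs, where Olfr-led cells of this cluster had a median of 30 in the transgenic library.

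Mature cells were called for a Taar in 6 of 622 transgenic cells (0.965%, 0.355% to 2.09%) and in 2 of 435 cells of the wild-type library (0.460%, 0.0557% to 1.65%). The intervals overlap. The transgenic cells were a Taar2 cell with 10 UMIs of its receptor, a Taar3 cell with 29, 2 Taar4 cells with 35 and 30, and 2 Taar9 cells with 12 and 7. The wild-type cells were a Taar3 cell with 46 UMIs and a Taar6 cell with 29. Gap43 was at 0 in 7 of these 8 cells and at 4 UMIs in the Taar2 cell, which also had the lowest Omp of the 8, 35 UMIs against 73 to 122 in the others.

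Summed over mature cells, Taar RNA stood at 14.6 CPM in the transgenic (12.1 to 17.4) and 13.6 CPM in the wild-type library (10.7 to 17.1), a log2 ratio of 0.09 (−0.34 to 0.52). Olfr RNA of the same classes summed to 5969 CPM in the transgenic library and 10159 CPM in the wild-type library. The Taar level rests on few cells. Without Taar3, the Taar gene with most mature UMIs, the ratio was 1.05 (0.45 to 1.69), and with the 5% of cells of highest doublet score left out, which removed the wild-type Taar3 cell, it was 1.28 (0.70 to 1.91). No direction for mature Taar RNA between the libraries can be read from these values.

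Across the 3 classes, Taar-called cells made up 13 of 980 transgenic sensory neurons (1.33%, 0.708% to 2.26%) and 2 of 519 wild-type sensory neurons (0.385%, 0.0467% to 1.39%). Among the 13 transgenic cells, 38.5% were immature (13.9% to 68.4%), against 16.2% of 702 Olfr-led transgenic sensory neurons (13.6% to 19.2%). The intervals overlap, and the wild-type library had no immature Taar cell to set beside its 6.54% of 474 Olfr-led cells.

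**Figure D2:**
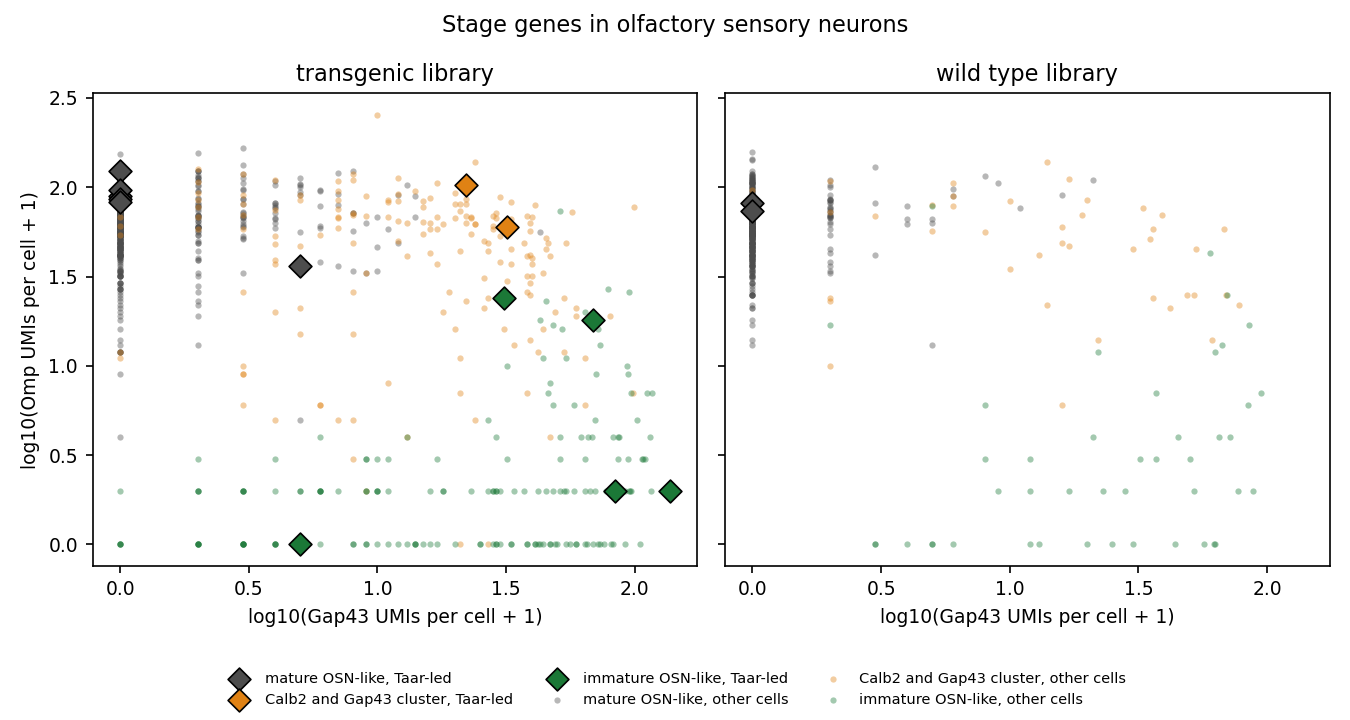
Gap43 (x axis) and Omp (y axis) UMIs per sensory neuron, both as log10 of the UMIs plus 1, in the transgenic (left) and wild-type (right) library; diamonds are the 15 Taar-led cells and dots all others, coloured by class. Transgenic Taar-led cells spread from high Gap43 with little Omp to high Omp without Gap43, and both wild-type ones have 0 Gap43.

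A Taar-led cell held fewer UMIs of its receptor than most Olfr-led cells did. In mature transgenic cells the leading Taar had a median of 20.5 UMIs (7 to 35, n = 6) and the leading Olfr a median of 92 (3 to 726, n = 443). In mature wild-type cells the leading Taar had 29 and 46 UMIs, and the leading Olfr a median of 116 (4 to 860, n = 406). The highest count of a Taar in a cell was 46, and 22.8% of transgenic and 13.8% of wild-type Olfr-led mature cells were at or under it. The ranges overlap, with Taar-led cells in the lower part.

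How far each gene model reaches past the coding sequence differs between the families, and 3′ reads that fall past a model's end are not counted for it. In GENCODE M21, 14 of the 15 Taar models (all but Taar1) end at the stop codon, while 1026 Olfr models go on into a 3′ untranslated region (median 1680 bases). A further 75 Olfr models end at the stop codon like the Taar ones. Of these coding-only Olfr genes, 13.3% were called in a sensory neuron (6.58% to 23.2%). The share was 57.2% for Olfr genes with an untranslated region (54.1% to 60.3%). It was 7 of 14 for coding-only Taar genes (50%, 23.0% to 77.0%). Mature cells led by a coding-only Olfr had a median of 35.5 UMIs of it in the transgenic library (n = 6) and 88 in the wild-type library (n = 3), against 93 and 116 for Olfr genes with an untranslated region. No source used here names the annotation behind the deposited counts, so the part of the gene models in the low Taar counts was not tested.

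**Figure D3:**
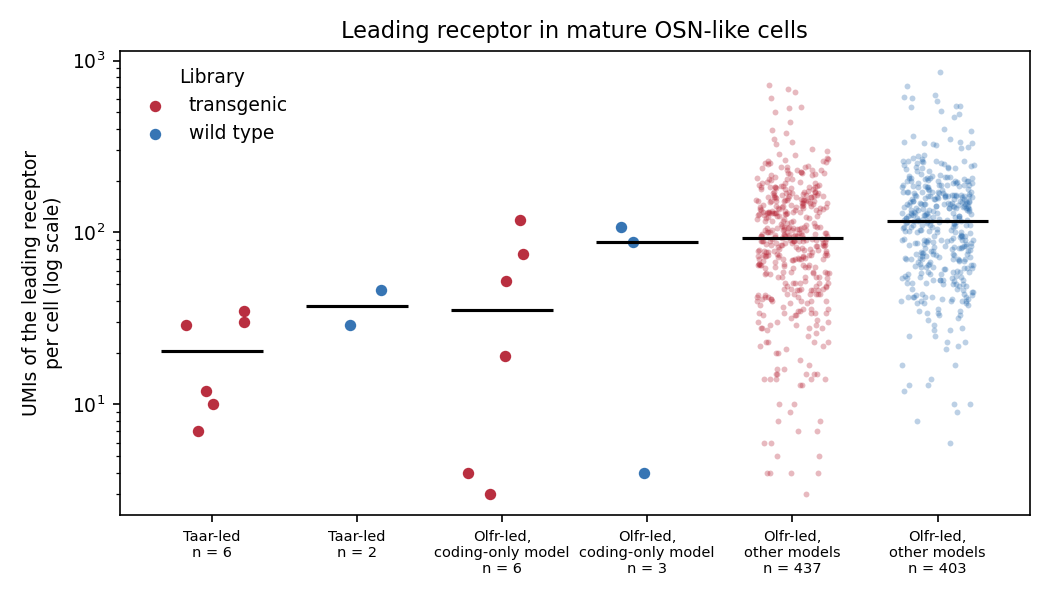
UMIs of the leading receptor per mature cell (y axis, log scale) for cells led by a Taar, by an Olfr whose GENCODE M21 model ends at the stop codon, and by any other Olfr, in the transgenic (red) and wild-type (blue) library; lines are medians. Taar-led cells lie between 7 and 46 UMIs, under the medians of 93 and 116 of Olfr genes with an untranslated region.

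The transgene counter 1A1_tg had UMIs in 3 of the 6 mature transgenic Taar-led cells (50%, 11.8% to 88.2%). It had 11 UMIs in the Taar3 cell and 1 UMI each in the Taar2 cell and a Taar4 cell. At 3 or more UMIs the share was 1 of 6 (16.7%, 0.421% to 64.1%). Olfr-led mature cells of that library held it at 1 UMI in 33.4% of cells (29.0% to 38%) and at 3 UMIs in 10.8% (8.10% to 14.1%). Mature cells with no Taar or Olfr at 3 UMIs held it at 1 UMI in 89.0% of 173 cells (83.4% to 93.3%). Their share at 3 UMIs was 81.5% (74.9% to 87.0%).
Both intervals of the 6 Taar-led cells hold the Olfr-led shares. Set against the cells without an endogenous receptor, the Taar-led interval overlaps theirs at 1 UMI and lies under it at 3 UMIs. Of the 7 Taar-led cells that were not yet mature, 1 had a single transgene UMI, and both wild-type Taar-led cells had 0.

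Mature Taar-led cells held a dorsal gene together with little of another dorsal gene and of the ventral nuclear factor genes. Acsm4, an acyl-CoA synthetase family gene of the dorsal zone, had 8, 9, 17, 5, 6 and 8 UMIs in the 6 transgenic Taar-led cells and 5 and 3 UMIs in the 2 wild-type ones. All 8 were therefore at 3 UMIs or more, while 60% of transgenic and 59.4% of wild-type Olfr-led mature cells had 0. The log2 ratio of Taar-led over Olfr-led cells, with 1 UMI added to the observed and to the expected UMIs, was 1.54 in the transgenic library (1.17 to 1.99) and 0.60 in the wild-type library (−0.52 to 1.68). Nqo1, the quinone reductase that marks dorsal neurons, had 3 and 1 UMIs in the Taar4 cells and 0 in the other 6. From Olfr-led cells 30.4 UMIs were expected in the transgenic library and 14.3 in the wild-type library. Most Olfr-led mature cells had 0 Nqo1 UMIs too, 65.9% of transgenic and 60.3% of wild-type ones.

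The pairing of Acsm4 (3 UMIs or more) with little Nqo1 (3 UMIs or fewer) was counted in other cells, with both limits set after the values had been seen. Cells led by class I receptors, which are dorsal, rarely had it. Among class I-led mature cells with 3 or more Acsm4 UMIs, Nqo1 was at 3 UMIs or fewer in 1 of 32 transgenic cells (3.13%, 0.0791% to 16.2%) and in 2 of 47 cells of the wild-type library (4.26%, 0.520% to 14.5%). Among such class II-led cells it was in 32 of 111 transgenic cells (28.8%, 20.6% to 38.2%) and in 13 of 86 cells of the wild-type library (15.1%, 8.30% to 24.5%). All 8 Taar-led cells had it, which follows from the limits. These are the lowest Acsm4 and the highest Nqo1 count of those 8 cells, so the shares are a description. Acsm4 itself was near its class I level, with medians of 8 UMIs in Taar-led and 8 in class I-led cells of the transgenic library, and of 4 and 5 in those of the wild-type library.

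The ventral nuclear factor genes were low. Nfix had 4 UMIs in 3 of the 6 transgenic cells and 0 in both wild-type cells, where 38.6 and 11.7 UMIs were expected from Olfr-led cells. Nfib had 0 UMIs in all 8 cells, against 15 and 5.98 expected. Nfia also had 0, but only 1.80 and 1.55 were expected. Nfix was no lower in Taar-led than in class I-led cells beyond counting error, the mean log2 ratio being −0.36 (−1.91 to 1.19).
Nrp2 and Ncam2, of the same ventral list, did not follow. Nrp2, a semaphorin receptor of ventral axons, had 6 UMIs with 6.82 expected from Olfr-led cells in the transgenic library (log2 −0.16, −1.64 to 0.95) and 1 with 3.89 expected in the wild-type library (−1.29, −7.26 to 0.52). It stood at 69.9 and 35.9 CPM in Taar-led cells, against 5.67 and 13.1 CPM in class I-led cells of the transgenic and of the wild-type library. Ncam2, an adhesion molecule of ventral axons, had 7 UMIs in the transgenic library and 5 in the wild-type library, over all Taar-led mature cells, against 10.3 and 3.11 expected from Olfr-led cells, a mean log2 ratio of 0.03 (−0.74 to 0.79). Class I-led cells had almost none, 9.45 CPM in the transgenic library and 6.54 CPM in the wild-type library, against 81.5 and 180 CPM in Taar-led cells. The 5 wild-type UMIs were all in the Taar3 cell. The guidance receptor Robo2, high dorsally, had 25 UMIs with 16.5 expected in the transgenic and 7 with 6.45 expected in the wild-type library, within counting error of Olfr-led cells.

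**Figure D4:**
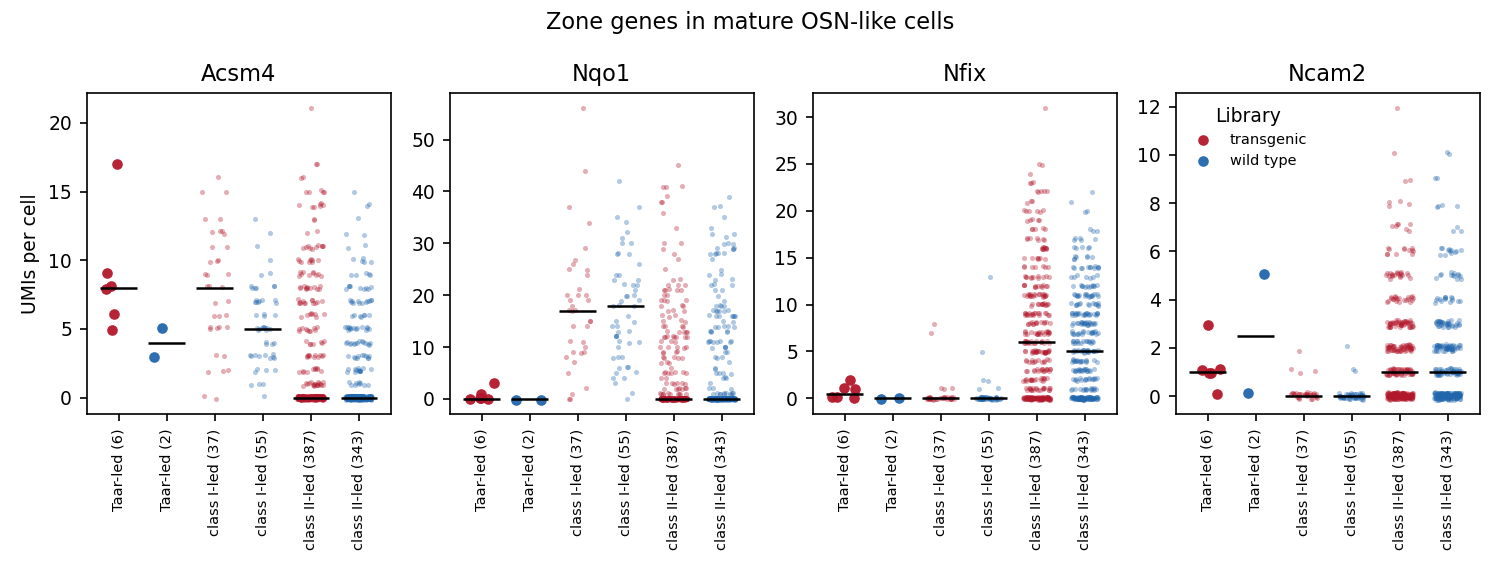
UMIs per mature cell (y axes) of the dorsal genes Acsm4 and Nqo1 and the ventral genes Nfix and Ncam2 in cells led by a Taar, a class I or a class II receptor, in the transgenic (red) and wild-type (blue) library, with numbers of cells in brackets, lines at medians and points spread slightly in both directions for legibility. The 8 Taar-led cells hold Acsm4 at 3 to 17 UMIs and Nqo1 at 0 to 3.

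Before maturity the zone genes looked different. Ncam2 had 14, 4, 9, 9 and 5 UMIs in the 5 immature Taar-led cells, and Acsm4 had 1, 0, 0, 0 and 5. Nqo1 was at 0 in 4 of them and at 8 UMIs in the Taar8a cell, which also held the 5 of Acsm4. The Taar8b barcode that was not kept had 9 Nqo1 and 18 Acsm4 UMIs. Both Nqo1 counts were above those of every mature Taar-led cell. The Taar8a cell was immature and called at only 3 UMIs of its receptor, and the Taar8b barcode was deep, with 31061 UMIs in all. No trait of neurons with a Taar8 gene can be read from them. Both cells of the Calb2 and Gap43 cluster had 0 Acsm4 and 4 Nfix UMIs each. Among immature Olfr-led transgenic cells 90.4% had 0 Acsm4 UMIs, so its near absence was not limited to Taar-led cells. Ncam2 was also higher in immature than in mature Olfr-led transgenic cells, at 251 against 120 CPM, with medians of 4 and 1 UMIs. In the immature Taar-led cells Nrp2 had 2 to 18 UMIs, Nfib 0 to 8, Nfix 0 to 6 and Nfia 0. The medians of Nrp2, Nfib, Nfix and Nfia were 9, 4, 0 and 0 there, against 2, 4, 3 and 0 in immature Olfr-led transgenic cells.

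Over all genes, Taar-led mature cells were compared with Olfr-led mature cells within each library, receptors left out. A gene was measured with 10 UMIs observed or expected in the Taar-led cells of each library, and was called at 2-fold in the same direction in both. Of 502 measured genes, 3 were called lower (0.598%). These were Calb2, Nfix and Nqo1. Calb2 had 0 UMIs in all 8 cells, where 16.4 were expected in the transgenic library and 15.7 in the wild-type library. With 3 UMIs as the floor of each library, the sums were at least 5.46-fold and 5.22-fold under those expected. These bounds cover counting error only and not the spread between cells. Most Olfr-led mature cells lacked Calb2 too, 75.8% in the transgenic library and 62.6% in the wild-type library. With so few Taar-led cells, 0 in each of them does not by itself show a difference. Nqo1 was at 0 in most Olfr-led mature cells as well. The low Calb2 depends on how mature cells were chosen. Its mean log2 ratio was −4.09 (−6.09 to −2.09), and −1.58 (−3.0 to −0.16) with mature cells chosen by Omp and Gap43 per cell, where the transgenic Taar-led cells held 112 Calb2 UMIs, as many as the Taar6 and Taar7b cells of the Calb2 and Gap43 cluster held together.

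A gene called higher had to be seen in 3 Taar-led cells of each library, which the wild-type library with 2 such cells could not meet, and 0 genes (0%) were called. With the rule relaxed, after the data had been seen, to every Taar-led cell where a library has fewer than 3, 1 gene was called (0.199%). This was Psmd14, the deubiquitinating subunit of the proteasome lid. It had 3, 10, 11, 8, 12 and 5 UMIs in the transgenic Taar-led cells, in the order Taar2, Taar3, Taar4, Taar4, Taar9 and Taar9, and 9 and 9 UMIs in the wild-type Taar3 and Taar6 cells. Olfr-led mature cells had a median of 1 UMI and a highest count of 7 in the transgenic library and 6 in the wild-type library. Psmd14 stood above 7 UMIs in 4 of 6 transgenic and 2 of 2 wild-type Taar-led cells, against 0 of 443 and 0 of 406 Olfr-led cells. The limit of 7 is the highest Olfr-led count, so the zeros follow from it and the counts are a description. Outside the sensory neurons, precursors and globose basal cells, 19 transgenic and 18 wild-type cells were above 7.

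The sums were 49 Psmd14 UMIs with 7.82 expected in the transgenic library, a log2 ratio of 2.50 (2.20 to 3.07), and 18 with 2.85 expected in the wild-type library, a log2 ratio of 2.30 (1.89 to 3.33). Against class I-led cells the ratios were 2.43 and 2.31. Mature cells with no receptor at 3 UMIs reached at most 7 in the transgenic library and 4 in the wild-type library, and the mature transgenic cell that held 2 UMIs of Taar7b was at 7. The Taar6 cell of the Calb2 and Gap43 cluster had 9 and the immature Taar8a cell 8. The other 5 Taar-led cells before maturity had 2, 2, 2, 0 and 4. Olfr-led cells of the Calb2 and Gap43 cluster reached 11, so that a high count was not seen only with a Taar. Of the barcodes not kept as cells, the Taar8b one had 23 Psmd14 UMIs of 31061 and the Taar3 one had 3 of 10451.

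**Figure D5:**
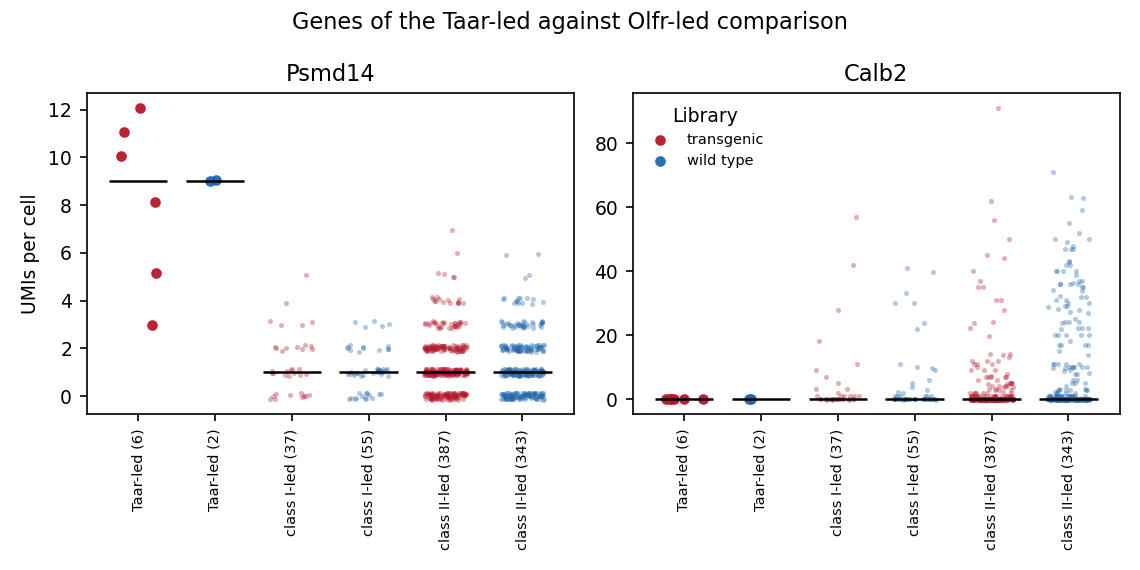
UMIs per mature cell (y axes) of Psmd14 and Calb2 in cells led by a Taar, a class I or a class II receptor, in the transgenic (red) and wild-type (blue) library, with numbers of cells in brackets, lines at medians and points spread slightly in both directions for legibility. Taar-led cells hold 3 to 12 UMIs of Psmd14, above a highest Olfr-led count of 7 in 6 of 8 cells, and 0 of Calb2.

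Set against class I-led cells alone, 508 genes were measured. Under the relaxed rule 2 were called higher (0.394%), Psmd14 and Mslnl, a mesothelin-like gene with 45 UMIs against 15.9 expected in the transgenic and 12 against 4.51 in the wild-type library. In the wild-type library Mslnl was measured only through its counts in Taar-led cells. Lower were 4 (0.787%): Nqo1, Calb2, Cd55, an inhibitor of complement, and the tetraspanin Cd9. Nqo1 had 4 and 0 UMIs where 106 and 43.6 were expected. Cd55 had 0 in both libraries, with 15.4 and 12.3 expected, and Cd9 had 27 and 1, with 61.5 and 15.9 expected.

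In the transgenic library alone, also set after the data had been seen, 1932 genes were measured. There 40 were called higher in Taar-led cells (2.07%) and 41 lower (2.12%). After Psmd14, the largest higher ratios were those of Trmt10c, a mitochondrial tRNA methyltransferase (log2 1.99), Bbc3, which encodes the apoptosis factor Puma (1.94), Papss2, a sulfate donor synthase (1.93), and Acsm4 (1.54). Trmt10c had 10 UMIs with 1.76 expected, Bbc3 10 with 1.86 and Papss2 13 with 2.68. Trmt10c, Bbc3 and Papss2 reached the minimum of 10 UMIs only through the Taar-led cells, so their high ratios follow in part from that minimum. In wild-type Taar-led cells Trmt10c had 0 UMIs with 0.691 expected, Bbc3 1 with 0.316 and Papss2 4 with 0.828, too few to read. Prkacb, a catalytic subunit of protein kinase A, had 31 with 11.4 expected in the transgenic library (log2 1.36), but 0 with 3.74 in the wild-type library. Lower in the transgenic library were Tshz1, a zinc finger homeobox gene with 0 UMIs and 18.4 expected, and Cd55, Sorbs2 and Avp, each with 0 UMIs and 16.1, 14.4 and 11.8 expected. In the wild-type cells Tshz1 had 0 with 8.04 expected, Cd55 0 with 7.41, Sorbs2 2 with 6.71 and Avp 0 with 2.26. The histone gene H2bc21 and 2010204K13Rik, each with 2 transgenic UMIs where 19.5 and 10.3 were expected, were not low in the wild-type cells. There H2bc21 had 13 with 13.7 expected and 2010204K13Rik 8 with 2.11, a log2 ratio of 1.53.

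Gnal, Adcy3, Cnga2, Ano2, Stoml3 and Rtp1 were among the markers that named the mature class. Transduction genes were also left in the clustering. That mature Taar-led cells held the receptor-to-channel cascade of Olfr-led ones follows in part from this choice, so the values are a description. Of 13 transduction genes 11 were measured and 0 passed 2-fold in both libraries, with a median mean log2 ratio of 0.30 beside 0.03 over all 502 measured genes. Gnal, the G protein alpha subunit, had 303 UMIs with 263 expected in the transgenic and 134 with 101 expected in the wild-type library, and the cyclase gene Adcy3 had 98 with 81.0 and 41 with 31.7. The channel gene Cnga2 had 54 with 50 and 30 with 18.5. Lower ratios were seen for Stoml3, a stomatin-like protein of the cilia, and for Cnga4, a second subunit of the channel. Stoml3 had 489 UMIs with 712 expected in the transgenic (log2 −0.54, −0.67 to −0.41) and 112 with 242 expected in the wild-type library (−1.11, −1.39 to −0.85). Cnga4 had 19 with 29.8 expected in the transgenic (−0.62, −1.38 to −0.00) and 8 with 11.3 expected in the wild-type library (−0.45, −1.71 to 0.48).

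Among the receptor transport genes Rtp1 and Rtp2 were measured and neither passed 2-fold. Rtp1 had log2 ratios of 0.48 and 0.62. Of 13 genes of receptor choice 5 were measured, 0 passed, and the median was −0.26. Lhx2, the homeodomain factor that Olfr enhancers bind, had a log2 ratio of 0.38 in each library. Of 15 guidance and adhesion genes 3 were measured, 0 passed, and the median was −0.07. Kirrel2, an adhesion molecule linked to neuronal activity, had 53 UMIs with 85.0 expected in the transgenic and 5 with 13.3 expected in the wild-type library (log2 −0.67 and −1.25).
Of 6 activity-linked genes 2 were measured. The calcium-binding S100a5 had a log2 ratio of 0.67 in the transgenic (0.62 to 0.73) and 0.64 in the wild-type library (0.51 to 0.76). The summed ratio rests on few cells, since the transgenic Taar-led cells had a median of 178 UMIs (72 to 1602), under the Olfr-led median of 234. The wild-type Taar-led cells had 448 and 70, against an Olfr-led median of 63. Pcp4l1 had log2 ratios of 0.78 (0.63 to 0.93) and 1.52 (1.22 to 1.87). Neither passed 2-fold in both. The mature cluster in which S100a5 and Pcp4l1 were among the first 10 genes held 62.5% of the 8 Taar-led and 55.8% of 849 Olfr-led mature cells. The part of this in both genes was not tested.

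Most markers of other chemosensory neurons were at 0. Of 10 such genes none was measured. Gucy2d, Cnga3, Pde2a, Trpc2, Ms4a4a, Emx1, Trpm5 and Chat had 0 UMIs in all 8 mature Taar-led cells. Gucy1b2, a guanylate cyclase gene of a small sensory neuron type, had 2 UMIs in 2 transgenic Taar-led cells, with 0.0547 expected, and 0 in the wild-type ones. It was also among the first 10 genes of the cluster named olfactory ensheathing glia, so these UMIs do not point to 1 cell type. Car2, a carbonic anhydrase gene of carbon dioxide-sensing neurons, had 4 UMIs in 4 of the 6 transgenic cells and 0 in the wild-type ones. From Olfr-led cells 7.74 and 1.65 were expected, so it was no higher than in them. Vomeronasal and formyl peptide receptor genes had 2 UMIs in all, both in the wild-type Taar3 cell.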

How the data were processed

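The authors deposited unfiltered matrices of raw UMI counts, in which most barcodes are not cells. Per the submitters' processing notes they were made with Cell Ranger 6.1.1 and GRCm39 (mm39). The matrix headers name Cell Ranger 4. No source used here gives the annotation version. Per the labels' protocols the tissue was dissociated with enzymes, strained and loaded with kit version 3.1.

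Cells were barcodes with 500 genes or more, no more than 10% mitochondrial UMIs, and a UMI minimum of 5827 (transgenic) or 5318 (wild type), which is 10% of the 99th percentile over the 5000 largest barcodes and may not fall below 1000. Scrublet marked 4 and 2 cells, under 0.5% of them, too few to count as working, and these were dropped. An alternative left out the 5% with the highest scores. Clustering used scanpy 1.11.5, igraph 0.11.9 and anndata 0.12.19 (2000 variable genes, 30 components, 15 neighbours, resolution 1), without receptor, mitochondrial or ribosomal genes, and gave 26 clusters. Cell classes were named from marker lists, and no cell type annotation by the authors was used.

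Receptors were called at 3 UMIs. Class I and II came from receptor family numbers in RefSeq synonyms, which 1080 of 1105 Olfr genes have. Shares have Clopper-Pearson intervals, sums exact Poisson intervals and ratios conditional binomial intervals (scipy 1.17.1). Intervals of a mean over both libraries are normal approximations. Where none of a group's cells qualified, the limit given is 3 divided by the number of cells, a bound on 1 side only. Clopper-Pearson upper limits are higher for wild-type immature cells (8.04%) and the wild-type Calb2 and Gap43 cluster (8.81%). For the mature Taar-led cells that limit is 36.9%. Levels (CPM) are counts scaled to 1000000 UMIs of a class. Expected UMIs are the share of a gene in the compared cells times the UMIs of the Taar-led cells, and ratios had 1 UMI added to the observed and expected UMIs. This addition was chosen after a first version of the comparison had been seen. Named genes were all Taar genes, the 10 (against class I-led cells, 5) with the largest mean ratio in each direction among those called, and fixed lists of stage, zone, transduction, transport, guidance, activity, choice and other chemosensory genes. Members and lists were chosen with earlier results of these data known. The comparison was run on simulated counts drawn from 1 summed profile per library. Simulated cells therefore varied only by depth, set fold changes and counting error. Genes present in only some of the cells are not covered by it. Nothing says whether a library was 1 animal or several pooled.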

Additional observations from a re-analysis of the deposited data

How the results depend on the processing

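No paired analysis was possible because each genotype has 1 library and no test was made. The called shares kept within their counting intervals when receptors were called at 1, 5 or 10 UMIs, at minimums of 1000 or 2000 UMIs per barcode, at 20% mitochondrial UMIs, with mature cells chosen by Omp and Gap43 per cell, with the 5% highest doublet scores left out, and with cells thinned to 7900 UMIs (158 transgenic and 167 wild-type cells left out). The log2 ratio of mature Taar CPM, transgenic over wild type, was 0.09, and moved to 1.05 without Taar3 and to 1.28 with the 5% highest doublet scores left out, which removed 1 of the 2 wild-type mature Taar cells. With those cells left out the mean log2 ratio of Ncam2 was −0.80 (from 0.03) and 0 of 121 measured genes were lower, and at a gene minimum of 20 UMIs 0 of 188 were, since fewer genes were measured. Against class I-led in place of Olfr-led cells the mean log2 ratio of Acsm4 turned to −0.26 (from 1.07), Nqo1 was −4.95 (from −3.29), Ncam2 2.24 and Nfix −0.36 (from −3.33). Alternatives chosen after seeing the data concern genes called higher, 0 as designed: 1 with every Taar-led cell required where a library has fewer than 3, 2 when in addition no UMI was added before the log, and 4 when 1 UMI was added to each summed count instead. The mean log2 ratio of Psmd14 was 2.40. The share of Taar-called cells that were immature or earlier was 33.3% (5 of 15). With thinning, which leaves out cells as well as UMIs, it was 16.7% (2 of 12). With 15 Taar-called cells, the number of cells limits the precision, and shares under about 1% of a class cannot be ordered between the libraries.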
